A study of Mus musculus with 4 samples.

Results

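The genes described here encode the membrane skeleton of the red cell and the anion exchanger that anchors it. They were Sptb, Ank1, Epb41, Epb42, Slc4a1, Dmtn, Add2, Tmod1 and Mpp1, chosen by name. Each was read from the probe set that named it alone, and from the one with the highest mean over the 4 arrays where there were several. Such a probe set was found for 8 of the 9 genes, of 19938 genes with one in all. Epb41, the gene of protein 4.1, which ties spectrin to actin, had none among the annotated probe sets used and was not analysed here.

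RNA came from bone marrow cells of mice on the C57BL/6 background, sorted as positive for both Ter119, an erythroid surface antigen, and CD71, the transferrin receptor. The control group was labelled WT and the other Parp-2-/-, lacking the DNA-damage-dependent poly(ADP-ribose) polymerase encoded by Parp2, with 2 arrays of each on an Affymetrix whole-transcript platform. Age, sex, the number of animals behind an array and the deleted part of Parp2 are not given in the sources used here. Titles end in 1 or 2 within each genotype, called number 1 and number 2 below, and no label says what the number marks.

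The skeleton is a lattice of spectrin tetramers under the lipid bilayer. It hangs from band 3 through ankyrin and protein 4.2, and from the junctions where spectrin meets short actin filaments through protein 4.1, p55, dematin, adducin and tropomodulin. Most of these proteins are made in quantity while erythroblasts mature, and inherited loss of band 3, ankyrin, spectrin or protein 4.2 causes fragile, rounded red cells. The erythroid factors GATA1 and KLF1 activate many genes of this kind.

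Values are on the log2 scale and are given for number 1 and then number 2. The 23410 annotated probe sets had array medians from 5.23 to 5.49. The knockout array of number 2 stood apart, with an interquartile range of 1.98 against 2.62 to 2.94 on the others. Parp2 read 8.24 and 7.65 in wild type and 7.11 and 6.70 in the knockout, where both arrays lay below both wild type ones. The labelled cell type was checked with 11 erythroblast markers, of which 9 had a probe set naming them alone. All 9 lay between 9.32 and 12.24 on every array. Among them Tfrc, which encodes CD71, read 10.35 and 11.43 in wild type and 10.65 and 11.39 in the knockout. High readings of these markers do not measure the purity of the sort. The 9 had mean levels of 10.05 and 10.92 in wild type and 10.39 and 10.78 in the knockout. Mean levels of 12 neutrophil markers were 11.01 and 10.39 in wild type and 9.68 and 9.12 in the knockout.

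The 8 measured genes differed more between the numbers, in either genotype, than between the genotypes averaged over both numbers. On number 1 all 8 were higher in the knockout, with a median difference of +0.45. On number 2 all but Mpp1 were lower, with a median of -0.22. Of the 23410 annotated probe sets, 11671 were higher on number 1 and 10214 were lower on number 2. Averaged over both numbers the median of the 8 genes was +0.19, and 8 of the 8 were higher in the knockout, as were 56.4% of annotated probe sets. Of the 11705 brighter probe sets, those with a mean above the median of all, 4619 were higher and the median was -0.11. Of these 11705, 6383 were higher on number 1 and 7977 were lower on number 2. All 8 genes were among the brighter ones. Their direction was not stable: with arrays centred on their medians 3 of the 8 (Sptb, Dmtn and Add2) were lower. All 8 were lower without the wild type array of number 1 (median -0.55) or without the knockout array of number 2 (median -0.15). All 8 were higher without the wild type array of number 2 (median +0.75) or without the knockout array of number 1 (median +0.52). Leaving out an array unbalances the numbers between the genotypes, so these runs also carry the difference between the numbers. None of the 8 passed limma's test at an adjusted p under 0.05 (adjusted p = 0.9999 for each), as 0% of all annotated probe sets did. No gene had both knockout arrays on the same side of both wild type arrays, where 25% of annotated probe sets did. In bulk RNA, a different make-up of the sorted cells and a different RNA level per cell cannot be told apart.

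Promoters are shown for 4 of the 5 measured genes with an entry in the RefSeq promoter table of the mouse assembly GRCm38.p6, each from 250 bases before the annotated start to 50 after it. Epb42 and Tmod1 had the widest span over the arrays, Add2 the narrowest, and Mpp1 was alone in not changing sign between the numbers. Capitals mark GATAA, a core of GATA factor sites, and CACCC, a core of KLF1 sites, searched on both strands (TTATC and GGGTG on the other strand). The positions are chr2:121036828-121037127 on the minus strand for Epb42, chr4:46038972-46039271 on the plus strand for Tmod1, chrX:75130967-75131266 on the minus strand for Mpp1 and chr6:86028431-86028730 on the plus strand for Add2.
Epb42: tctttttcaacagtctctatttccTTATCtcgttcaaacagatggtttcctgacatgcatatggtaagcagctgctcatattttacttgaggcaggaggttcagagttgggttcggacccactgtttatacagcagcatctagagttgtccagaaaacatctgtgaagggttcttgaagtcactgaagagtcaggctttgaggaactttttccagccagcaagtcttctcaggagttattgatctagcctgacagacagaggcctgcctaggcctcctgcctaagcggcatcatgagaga
Tmod1: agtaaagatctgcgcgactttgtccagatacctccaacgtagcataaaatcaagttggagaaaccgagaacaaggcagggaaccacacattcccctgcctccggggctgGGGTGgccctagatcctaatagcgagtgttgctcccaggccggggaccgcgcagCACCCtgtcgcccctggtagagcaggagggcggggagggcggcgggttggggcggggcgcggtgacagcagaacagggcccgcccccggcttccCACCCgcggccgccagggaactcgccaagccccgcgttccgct
Mpp1: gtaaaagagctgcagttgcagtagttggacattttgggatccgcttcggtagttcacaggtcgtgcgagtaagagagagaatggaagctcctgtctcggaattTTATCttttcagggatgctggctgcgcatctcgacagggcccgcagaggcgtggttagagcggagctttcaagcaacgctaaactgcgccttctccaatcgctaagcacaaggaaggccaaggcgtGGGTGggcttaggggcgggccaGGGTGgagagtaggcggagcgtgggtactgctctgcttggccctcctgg
Add2: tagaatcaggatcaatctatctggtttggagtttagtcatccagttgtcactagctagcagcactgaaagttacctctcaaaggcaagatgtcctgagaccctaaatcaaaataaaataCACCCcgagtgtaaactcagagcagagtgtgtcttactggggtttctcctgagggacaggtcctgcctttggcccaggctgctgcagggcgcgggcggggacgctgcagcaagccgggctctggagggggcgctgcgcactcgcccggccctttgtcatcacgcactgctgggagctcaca

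The Epb42 window held 1 GATAA, which began 226 bases before the start, and no CACCC. The Tmod1 window held 3 CACCC and no GATAA. The Mpp1 window held 1 GATAA and 2 CACCC, and the Add2 window held 1 CACCC. Counting Sptb, whose window held 1 CACCC, the motif GATAA was present in 2 of 5 windows and CACCC in 4 of 5, against 25.4% and 57.5% of all 32851 promoters in the table. Both were present in 1 of the 5, that of Mpp1, and in 12.6% of all. A match of these letters is a description and not a binding site. Promoters of Slc4a1, Ank1 and Dmtn were not used here.

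Band 3 and the proteins that hold it to spectrin came first. Slc4a1 encodes band 3, the chloride and bicarbonate exchanger that is the most abundant protein of the red cell membrane (probe set 10391649). Its readings were 11.5 and 13.01 in wild type, and 12.24 and 12.78 in the knockout. The lowest and the highest reading were both wild type, with both knockout arrays between them. The knockout was higher by 0.74 on number 1 and differed by -0.23 on number 2, which averaged to +0.25 ± 0.56 (SE, n = 2 per group), with a 95% interval of -1.08 to 1.58.

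Ank1 encodes erythroid ankyrin, the adaptor between band 3 and beta-spectrin (probe set 10570894). Its values were 9.89 and 11.34 in wild type and 10.38 and 11.13 in the knockout. The order of the arrays was that of Slc4a1. The mean difference was +0.14 ± 0.56 (SE, n = 2 per group), made of +0.49 on number 1 and -0.21 on number 2.

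Epb42 encodes protein 4.2, which binds band 3 and ankyrin and steadies their contact (probe set 10486664). It read 9.06 and 11.43 in wild type and 10.17 and 11.31 in the knockout. Number 2 was nearly level between the genotypes (-0.12), while on number 1 the knockout was higher by 1.12. The mean difference of +0.50 ± 0.80 (SE, n = 2 per group) had a 95% interval of -1.40 to 2.39. That is 0.38-fold to 5.25-fold, and changes within it, in either direction, were not resolved by 4 arrays.

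Sptb encodes erythroid beta-spectrin, the chain that carries the ankyrin and actin contacts of the lattice (probe set 10401068). It read 9.15 and 10.28 in wild type and 9.55 and 9.97 in the knockout. The knockout arrays again lay inside the wild type range. The mean difference was +0.05 ± 0.48 (SE, n = 2 per group), and arrays centred on their medians gave -0.027. Over these 4 genes of the ankyrin complex the median was +0.61 on number 1 and -0.22 on number 2.

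The genes of the actin junction were compared next. Dmtn encodes dematin, which bundles actin and links the junction to the membrane (probe set 10421418). Its values were 9.28 and 10.53 in wild type and 9.56 and 10.27 in the knockout. The group means were almost equal, with a difference of +0.01 ± 0.53 (SE, n = 2 per group) that became -0.064 with arrays centred. The 95% interval of -1.24 to 1.26 still spans more than a doubling in either direction.

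Add2 encodes beta-adducin, which caps actin filaments and recruits spectrin to them (probe set 10539669). It read 8.59 and 9.03 in wild type and 8.68 and 8.97 in the knockout, the narrowest span of the 8 genes. Its mean difference, +0.01 ± 0.38 (SE, n = 2 per group), had the tightest interval, -0.89 to 0.91, and was -0.062 with arrays centred.

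Tmod1 encodes tropomodulin, which caps the slow-growing end of the actin filament and helps to set its length (probe set 10504692). It read 7.53 and 10.67 in wild type and 8.84 and 10.32 in the knockout, the widest span of the 8. The wild type array of number 1 was the lowest of the 4 by 1.31. The mean difference was +0.48 ± 1.01 (SE, n = 2 per group), with a 95% interval of -1.92 to 2.87. A second probe set for Tmod1, 10504690, read 5.82 and 6.65 in wild type and 6.04 and 7.08 in the knockout. It too was higher on number 2 in both genotypes, but there the knockout was higher within number 2 as well (+0.43), where the brighter probe set gave -0.36.

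Mpp1 encodes p55, a palmitoylated scaffold that joins protein 4.1 to glycophorin C (probe set 10605370). It read 9.74 and 10.40 in wild type and 9.99 and 10.62 in the knockout. Here the highest reading was the knockout array of number 2, and the knockout was higher by similar amounts within both numbers (+0.25 and +0.22). The average, +0.23 ± 0.43 (SE, n = 2 per group), was smaller than the gap of 0.66 between the wild type arrays.

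**Figure D1:**
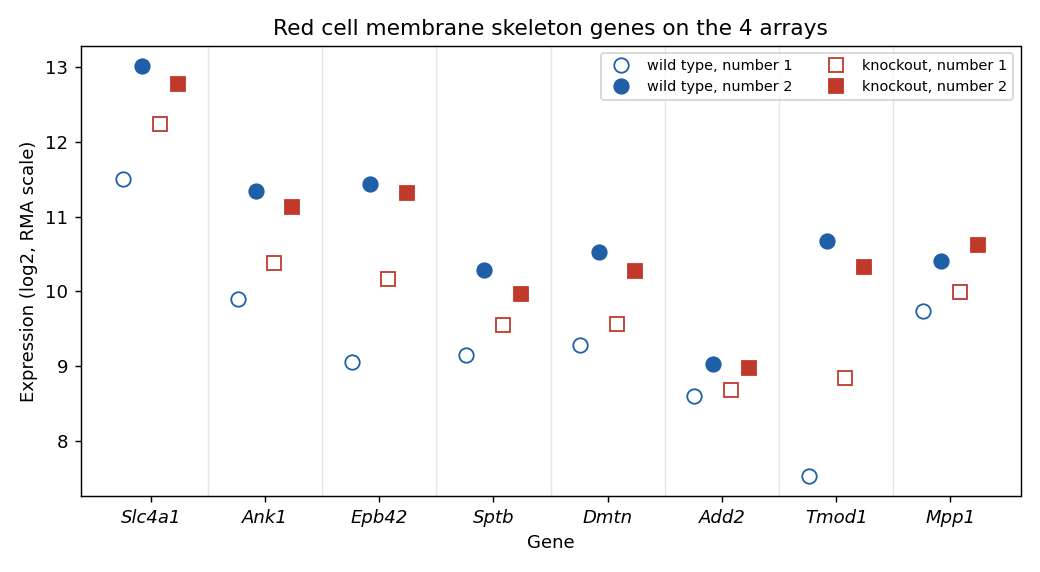
Expression (log2, RMA scale) of the 8 measured genes on each of the 4 arrays, circles for wild type and squares for the knockout, open for number 1 and filled for number 2. Filled symbols lie above open ones of the same genotype for every gene, and for 7 of the 8 both squares lie between the circles; heights should be compared within a gene only.

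**Figure D2:**
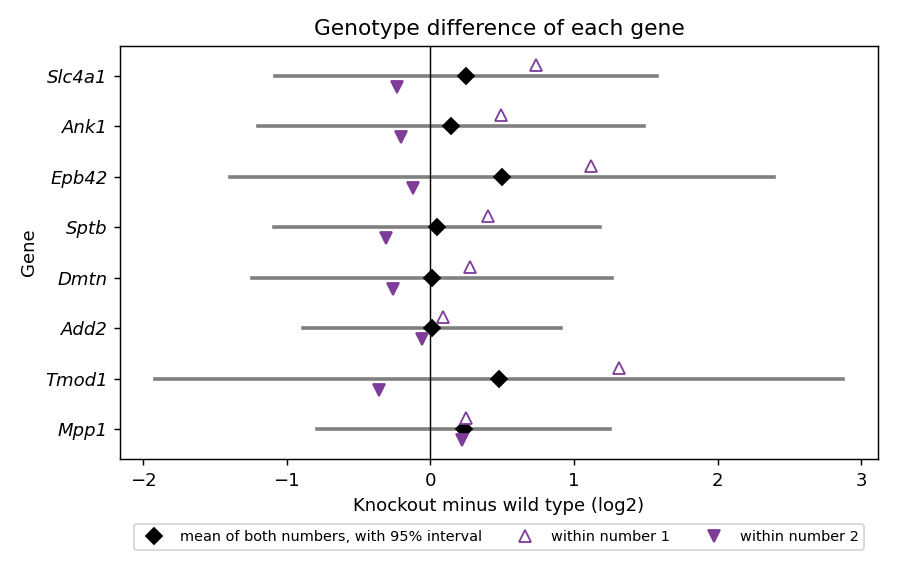
Knockout minus wild type (log2) for each gene, with diamonds for the mean over both numbers, bars for limma's 95% confidence interval, and triangles for the difference within number 1 (open) and within number 2 (filled). All 8 intervals include 0, and the triangles lie on opposite sides of 0 for every gene but Mpp1.

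The change of sign between the numbers was then set against all probe sets. A higher value in the knockout on number 1 with a lower one on number 2 was found for 7 of the 8 genes, for 22.4% of annotated probe sets and for 37% of the brighter ones, those with a mean above the median of all. Both knockout arrays lay between the wild type arrays for the same 7 genes, for 12.1% of annotated and 14.2% of brighter probe sets. Among the brighter probe sets the median difference on number 2 was -0.27, close to the -0.22 of these genes, and on number 1 it was +0.04, against +0.45. The lower values on number 2 depended on the scaling: after quantile normalisation was repeated over the deposited values, 3 of the 8 genes (Sptb, Slc4a1 and Tmod1) were lower there, and the median was +0.09. On number 1 all 8 stayed higher in the knockout with arrays centred and after repeated quantile normalisation, with medians of +0.46 and +0.44.

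In each genotype the difference between the numbers was larger than the genotype difference averaged over both numbers, where opposite signs cancel. Within 1 number this did not always hold. On number 1 Slc4a1 differed by +0.74 between the genotypes, against +0.54 between the knockout arrays. Number 2 was above number 1 in both genotypes for 8 of the 8 genes, for 33.7% of annotated probe sets and for 24.2% of the brighter ones. In wild type the median difference was +1.35 and in the knockout +0.67, where all annotated probe sets had medians of -0.04 and +0.19. The count of 8 was also found with arrays centred, after repeated quantile normalisation and with a gene's probe sets averaged.

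The size of that gap differed widely among the genes, and Tmod1 and Epb42 led in both genotypes. In wild type the difference was +3.14 for Tmod1, an 8.84-fold span, then +2.37 for Epb42, +1.51 for Slc4a1, +1.45 for Ank1, +1.26 for Dmtn, +1.13 for Sptb, +0.66 for Mpp1 and +0.44 for Add2. In the knockout Tmod1 (+1.48) and Epb42 (+1.14) came first and Add2 (+0.29) last. With a single array per number and genotype these steps have no error of their own, and the order of close neighbours such as Slc4a1 and Ank1 is a description.

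The knockout difference was the smaller for all 8 genes, which held for 35% of annotated probe sets. Its ratio to the wild type difference ran from 0.36 for Slc4a1 and 0.37 for Sptb to 0.95 for Mpp1. After repeated quantile normalisation it was smaller for 6 of the 8, the others being Add2 (+0.87 against +0.66) and Mpp1 (+1.11 against +0.82). The narrow knockout array of number 2 enters each of these values, and its part in them was not tested.

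**Figure D3:**
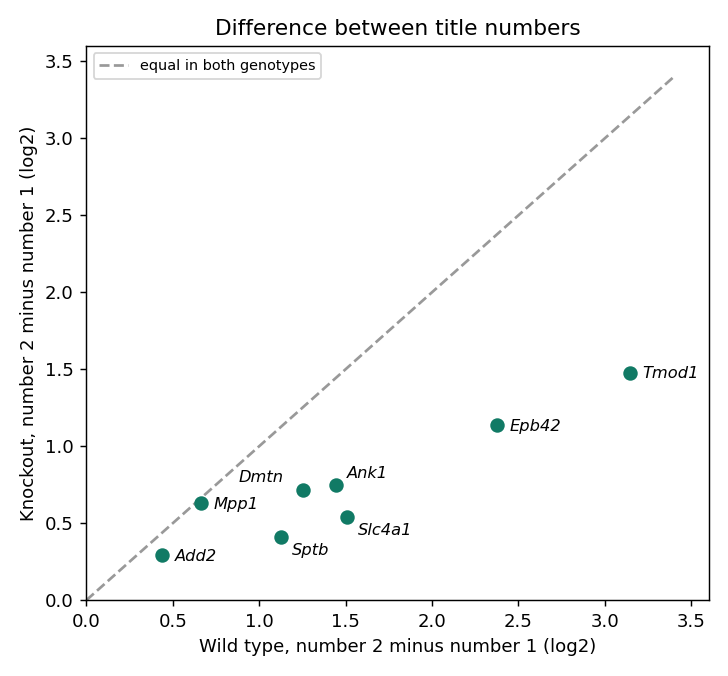
Number 2 minus number 1 (log2) in wild type (horizontal axis) and in the knockout (vertical axis) for each of the 8 genes, with a dashed line where the genotypes would be equal. All points lie below the line, from Mpp1 close to it to Tmod1 farthest away.

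Other proteins of the same membrane were read from a list of 23 partners, of which 20 were measured. None passed the test, 9 were higher and 11 lower, and the median was -0.01. Kel, the Kell blood group metalloprotease, followed the pattern of the skeleton genes, at 9.62 and 11.52 in wild type and 10.36 and 11.30 in the knockout. Gypc, the glycophorin that p55 and protein 4.1 bind, read 8.63 and 9.89 in wild type and 9.05 and 9.96 in the knockout. The knockout differed by +0.43 on number 1 and by +0.07 on number 2. Add1, the alpha-adducin that pairs with beta-adducin, read 8.96 and 10.29 in wild type and 9.27 and 9.74 in the knockout.

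Some partners with a general role in other cells had another order. Tmod3, the tropomodulin of most nucleated cells, was lower on number 2 in both genotypes, at 8.17 and 7.57 in wild type and 8.33 and 7.82 in the knockout. Capzb, a subunit of actin capping protein, read 9.13 and 8.32 in wild type and 9.31 and 8.68 in the knockout. The partners of lowest p were Add3, the gamma-adducin of many tissues (-0.77 ± 0.41), Flot1, a flotillin of membrane rafts (-0.75 ± 0.43), and Icam4, the erythroid adhesion molecule LW (-0.57 ± 0.37, SE, n = 2 per group). Both knockout arrays were below both wild type arrays for these 3 and for 5 of the 20 partners in all. Both lay below for 2206 of the 23410 annotated and 1548 of the 11705 brighter probe sets. None of the 20 had both above, and 25% of annotated probe sets lacked overlap in either direction. Number 2 exceeded number 1 in both genotypes for 12 of the 20, against 33.7% of annotated probe sets.

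Paralogs of the skeleton genes that serve other cells were listed as a contrast, and 21 of 23 were measured. None passed the adjusted test, 12 were higher and 9 lower, and the median was +0.03. The lowest p belonged to the general spectrin chains. Sptbn1, the beta-spectrin of most nucleated cells, read 6.73 and 6.48 in wild type and 4.93 and 4.95 in the knockout. Sptan1, its alpha partner, read 6.68 and 6.19 in wild type and 5.55 and 5.35 in the knockout. Both genes separated the genotypes without overlap and in the same direction within both numbers. The differences were -1.66 ± 0.36 for Sptbn1 and -0.99 ± 0.38 for Sptan1 (SE, n = 2 per group). Neither passed limma's test (adjusted p = 0.9999). A lack of overlap was found for 6 of the 21 paralogs, 3 in each direction, and for 25% of annotated probe sets. The knockout readings of Sptbn1 lay below the array medians of 5.23 to 5.49. The Sptan1 reading on the knockout array of number 2 lay below the median of that array, 5.49. Markers of neutrophils and B cells were lower on the same arrays, as given below, and their part in these values was not tested.

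Erythroid regulators were read beside their known target genes. Of 10 listed and measured, 4 were higher and 6 lower in the knockout, with a median of -0.05, and none passed the test. Gata1 read 9.85 and 9.61 in wild type and 9.52 and 9.67 in the knockout, and Klf1 read 9.53 and 9.57 in wild type and 9.93 and 9.32 in the knockout. Neither showed the gap between the numbers that the skeleton genes did. Number 2 exceeded number 1 in both genotypes for 2 of the 10, against 33.7% of annotated and 24.2% of brighter probe sets. The 2 were Foxo3 (9.23 and 9.81 in wild type, 9.47 and 10.15 in the knockout) and Sox6 (7.20 and 9.60 in wild type, 8.44 and 9.05 in the knockout).

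Stage markers were compared with the same 4 arrays. Late erythroblast markers were higher on number 2 in both genotypes for 10 of 10 genes, with medians of +1.72 in wild type and +1.03 in the knockout. Their mean level was 8.22 and 10.56 in wild type and 9.29 and 10.32 in the knockout, the order found for the skeleton genes (9.34 and 10.84 in wild type, 9.93 and 10.67 in the knockout). Xpo7, a nuclear exportin needed for nuclear condensation in erythroblasts, had the widest span in this list, at 6.93 and 12.05 in wild type and 10.45 and 11.72 in the knockout. Erythroblast markers at large were higher on number 2 in both genotypes for 7 of 9. The same held for 33.7% of annotated and 24.2% of brighter probe sets. Averaged over both numbers, early erythroid and progenitor genes were lower in the knockout for 8 of 8. So were 10199 of the 23410 annotated probe sets and 7086 of the 11705 brighter ones. Medians of the early list were -0.52 on number 1, where Cd34 was higher (+0.39), and -0.74 on number 2. Meis1 read below the array median on every array, and Cd34 on all but the wild type array of number 2. The mean level of the list was 7.20 and 6.70 in wild type and 6.52 and 5.91 in the knockout. Kit, the stem cell factor receptor, read 8.09 and 5.98 in wild type and 5.73 and 5.82 in the knockout.

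Markers of other blood cells were read because the sort could hold them. No value on this scale was 0, so a reading does not by itself show that a cell type was present. Averaged over both numbers, 10199 of the 23410 annotated probe sets were lower in the knockout, as were 7086 of the 11705 brighter ones. Neutrophil markers were lower in the knockout for 12 of 12, with mean levels of 10.39 to 11.01 in wild type and 9.12 to 9.68 in the knockout. B cell markers were lower for 6 of 7, with mean levels of 6.95 to 7.49 and 5.73 to 6.06. Monocyte and macrophage markers were lower for 7 of 8 (6.86 to 7.84 and 6.34 to 7.26), and 6 of 8 were higher on number 2 in both genotypes. Megakaryocyte and platelet markers, from a lineage that also uses some of these skeleton genes, were higher in the knockout for 5 of 6 (5.51 to 6.65 and 6.01 to 6.92), and 5 of 6 were higher on number 2 in both genotypes. Number 2 was the higher in both genotypes for 33.7% of annotated and 24.2% of brighter probe sets. Markers of T and NK cells were lower for 5 of 6 (5.59 to 5.73 and 4.89 to 5.36), as were those of mast cells, basophils and eosinophils for 5 of 6 (5.55 to 6.27 and 5.08 to 5.11). In the T and NK list and the mast cell, basophil and eosinophil list, many readings were low. Cd3g, Cd3d, Klrb1c, Ms4a2 and Fcer1a read below the array median on every array. Nkg7, Cd3e, Cd8a, Mcpt8 and Cpa3 read above it on every array, and Prg2 and Epx on some. Readings below the array median also occurred in the B cell, monocyte and macrophage, and megakaryocyte and platelet lists. Among them were Ms4a1 and Adgre1 on both knockout arrays, and Cd163 on both arrays of number 1. Pf4 (3.91) and Ppbp (3.83) were below it on the wild type array of number 1. The part of all these blood cells in the values of the skeleton genes was not tested.

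**Figure D4:**
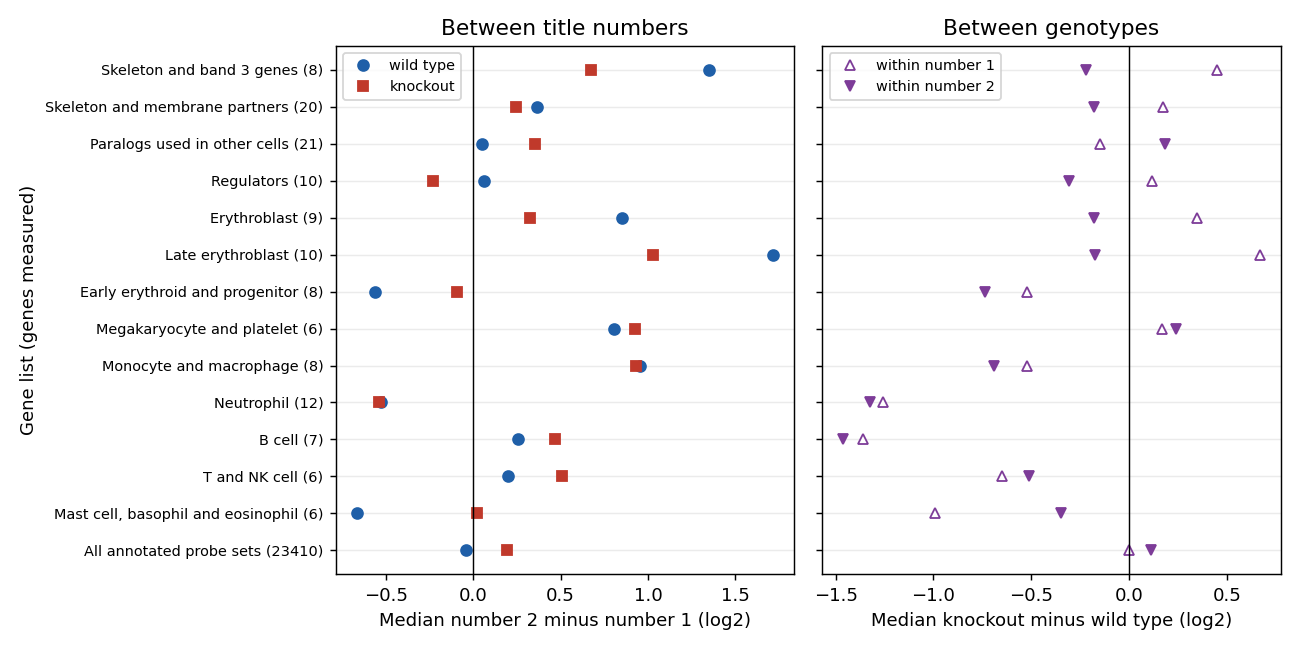
Median differences (log2) of each gene list between the title numbers (left, circles for wild type and squares for the knockout) and between the genotypes (right, open triangles within number 1 and filled within number 2), with the number of genes measured in brackets. The skeleton and band 3 genes stand at +1.35 and +0.67 on the left and at +0.45 and -0.22 on the right, next to the late erythroblast list at +1.72 and +1.03 and at +0.67 and -0.17.

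Finally, the genes with the most similar profile were looked up. Each gene was centred on its own mean over the 4 arrays and compared with the median profile of the 8 genes (-0.71 and +0.63 in wild type, -0.25 and +0.41 in the knockout), by root mean square distance in log2 units. The 5 closest of all other genes were Cep85, a centrosomal protein gene (0.026), Tut7, a terminal uridylyltransferase of RNA (0.038), Tax1bp1, an autophagy receptor (0.042), Apbb3 (0.044) and Ldlrad4 (0.045). Among the 8 genes themselves Ank1 lay nearest to the median profile (0.052) and Tmod1 farthest (0.72). With 4 arrays and 19938 genes, close profiles are a description only.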

How the data were processed

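RNA of 4 samples, 100 ng each per the labels' protocols, was hybridised to Affymetrix whole-transcript arrays. The values are log2 expression as the authors deposited them, in 1 table of 35511 probe sets; RMA, limma and R 3.0.2 are named in the submitters' processing notes, with roles not given in the sources used here. RMA tends to shrink differences at both ends of the intensity range. Columns were assigned by their names. Platform annotation gave 1 symbol to 21789 probe sets and several to 1621, and no gene was named from the latter.

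The genotype term was fitted by limma (version 3.58.1, under R 4.3.3; lmFit, then eBayes) to 2 arrays per group over 23410 annotated probe sets, with Benjamini-Hochberg adjustment and calls at an adjusted p under 0.05, after a run on simulated data. There were 2 residual and 4.77 prior degrees of freedom. No label ties an array to an animal, so the spread behind each p-value is that of these 4 samples and may be technical. The number of arrays limits the precision.

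The genes and lists were chosen with earlier results of these data known. Named are the members, Parp2, the 2 to 4 genes of lowest p per list and those a description needs, and the 5 nearest profiles. Counts within the title numbers under other scalings were added after seeing the data. The alternatives were a replicate block for the number, each array left out in turn, centring, repeated quantile normalisation, trended and robust moderation, brighter probe sets, a gene's mean, all rows, and an adjusted p under 0.1.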

Additional observations from a re-analysis of the deposited data

How the results depend on the processing

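None of the 8 genes passed the limma test in any alternative run. Over all probe sets the number of calls (0 of 23410, with 486 at an unadjusted p under 0.05) was 274 with the number as a replicate block, which leaves 1 residual degree of freedom, 8 with trended and robust moderation, and 0 to 62 with 1 array left out (5 without wild type replicate 1 and 62 without the other wild type array). It was 0 in the other settings where it was counted, which leaves out the run on a gene's mean. The difference between the numbers in wild type and that in the knockout correlated at 0.468 over probe sets, which are not independent, and 2 pairs with an unexplained number do not show that the arrays are paired. The block changed no call of the 8 genes.

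The count of genes without overlap (0) was 0 to 8 with 1 array left out: 7 when wild type replicate 1 was omitted, 8 for wild type replicate 2 and 1 for knockout replicate 1. Here 1 array is set against 2, which separate more easily than 2 against 2. The share over all probe sets was not counted for these runs, so the 25% given above is no measure for these counts. Leaving out an array also unbalances the numbers between the genotypes. With 1 array left out, the median difference of the 8 genes ran from -0.55 to 0.75. Single genes ran from -0.52 to 0.61 (Sptb), -0.58 to 0.87 (Ank1), -0.69 to 1.69 (Epb42), -0.50 to 1.01 (Slc4a1), -0.62 to 0.64 (Dmtn), -0.21 to 0.23 (Add2), -1.10 to 2.05 (Tmod1) and -0.10 to 0.56 (Mpp1). All 8 were negative when either wild type replicate 1 or knockout replicate 2 was left out. With arrays centred, Sptb (-0.027), Dmtn (-0.064) and Add2 (-0.062) changed sign; the other 5 kept theirs in the 7 settings that use all arrays. Centring moved the median of all probe sets from +0.19 to -0.07 between the knockout arrays and from +0.11 to -0.04 within number 2.

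Of the counts within numbers, repeated quantile normalisation changed those of genes lower in the knockout on number 2 (3), of genes that changed sign between the numbers (3) and of genes with both knockout arrays inside the wild type range (3), against 7 each, and that of genes with the smaller gap in the knockout (6 against 8). Averaging a gene's probe sets turned each 7 into 6. The cause was not tested. With 2 arrays per genotype the 95% interval of every one of the 8 genes reached at least to -0.79 below and 0.91 above no difference.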
